A study of Mus musculus with 4 samples.

Results

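The comparison described here is Foxp1 chromatin immunoprecipitation in basal epithelial cells of the mouse mammary gland, set against input DNA of the same cell type. Basal cells form the outer layer of the ducts and contract during milk ejection. In chromatin immunoprecipitation followed by sequencing (ChIP-seq), an antibody recovers DNA bound by a protein, and the input is chromatin taken without that step. The values are read counts per gene, and a gene entered the comparison when its reads over the 4 libraries of the study summed to at least 40. That left 23128 of 24548 genes, while 1420 fell under the minimum and 848 of those were at 0 in all 4 libraries. Just inside the minimum, the 12 genes with 40 summed reads had a median of 9 reads in basal ChIP and 8 in basal input, and just outside it the 8 genes with 39 had medians of 9 and 11.

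The basal Foxp1 ChIP group and the basal input group held 1 library each, as did the luminal Foxp1 ChIP group and the luminal input group, which were used only where a difference from luminal cells is given. All 4 came from mammary epithelium of wild-type female mice aged 10 to 12 weeks, with no treatment, of the strain that the study's design text spells FVB/N and the sample labels spell FBV/N. How many animals stood behind a library, and how the cells were separated, the sources used here do not say. Reads in genes numbered 3772902 and 3080114 for ChIP and input of basal cells, and 3163948 and 4201459 for those of luminal cells. With 1 library a group, no difference below was set against the spread between animals, every interval covers counting error only, and no library of a control antibody was analysed here.

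Foxp1 is a forkhead transcription factor. Its winged-helix domain binds DNA that holds the forkhead core TGTTTAC or close variants, a leucine zipper lets it pair with itself or other Foxp proteins, and it acts mostly as a repressor together with corepressors such as CtBP. Forkhead proteins of the Foxo group, which insulin and growth factor signals keep out of the nucleus, read the same core. In the mammary gland Foxp1 is known for its part in duct growth and in the quiescence of stem cells of the basal layer, where the tetraspanin gene Tspan8 is a described target.

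The sequences shown here are forkhead cores in promoters of genes with more ChIP than input reads, because the core is the DNA that Foxp1 reads. Of the 981 genes called higher, 738 had a promoter that could be searched, and 39 of these held a core. As background, 3.65% of all 32851 RefSeq promoters of the same length held one. These include several starts for some genes, and untested genes. Among tested genes, with 1 promoter each, 188 of 8465 CpG-rich and 341 of 8967 CpG-poor promoters held one. Each sequence is printed 5′ to 3′ on the strand that reads TGTTTAC, from RefSeq on GRCm38.p6. The core is in capitals, with 10 bases on either side. The examples were chosen after their values were seen.
Junb, chr8:84978867-84978893, minus strand: tcgtggccgcTGTTTACaaggacacgc
Btg1, chr10:96616787-96616813, plus strand: ggggtttattTGTTTACaagcagatta
Bcl2l11, chr2:128125801-128125827, minus strand: caccccggcgTGTTTACcctagtgtct
Klf9, chr19:23141116-23141142, minus strand: gattcaactcTGTTTACtttctccccc
Txnip, chr3:96557826-96557852, minus strand: acttggccctTGTTTACcaggcctcca
Ctbp2, chr7:133081895-133081921, plus strand: agccctgatcTGTTTACatccagccat
Tspan8, chr10:115817256-115817282, plus strand: acttgatatcTGTTTACtctagaggga
Cald1, chr6:34598449-34598475, minus strand: ataccccctaTGTTTACagtcagcagg
Maml3, chr3:52105004-52105030, minus strand: gccgctgccgTGTTTACtgagctcgcg
Etv5, chr16:22439737-22439763, plus strand: catcacctctTGTTTACcctgtcttca
Uhrf2, chr19:30030486-30030512, minus strand: cggcgcgcacTGTTTACttatagagat

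A count was first placed on the genome, since no source used here states which part of a gene was counted. In the inputs, reads per gene depended on how near the start of the next gene lay. For divergent neighbours, whose starts face away from each other, the median gene had 60 reads over both inputs in 514 pairs with starts within 500 bp. It had 24.5 reads at 500 to 1000 bp, 123 at 2000 to 3000 bp, 246.5 at 3000 to 4000 bp and 360.5 at 5000 to 6000 bp, close to the 374 reads of pairs more than 12000 bp apart. For neighbours read in the same direction the median was 6 within 500 bp and 346.5 at 4000 to 5000 bp. For convergent neighbours, whose starts face each other, it was 78 within 500 bp and 149.5 at 1000 to 2000 bp. In the few pairs further apart it did not rise steadily. It was 138.75 at 2000 to 3000 bp (22 pairs), 86.5 at 3000 to 4000 bp (13 pairs) and 324 at 4000 to 5000 bp (9 pairs). Of 49 windows tried, one from 3000 bp before to 2000 bp after the gene start, with bases shared by 2 genes' windows left out, fitted the input counts best, with 51.4% of the variance among 16309 genes; the next best, from 2500 before to 1500 after, gave 51.0%. A value below was therefore taken as reads around a gene's start, about 356 over both inputs for a whole window, and not as a called binding site.

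**Figure D1:**
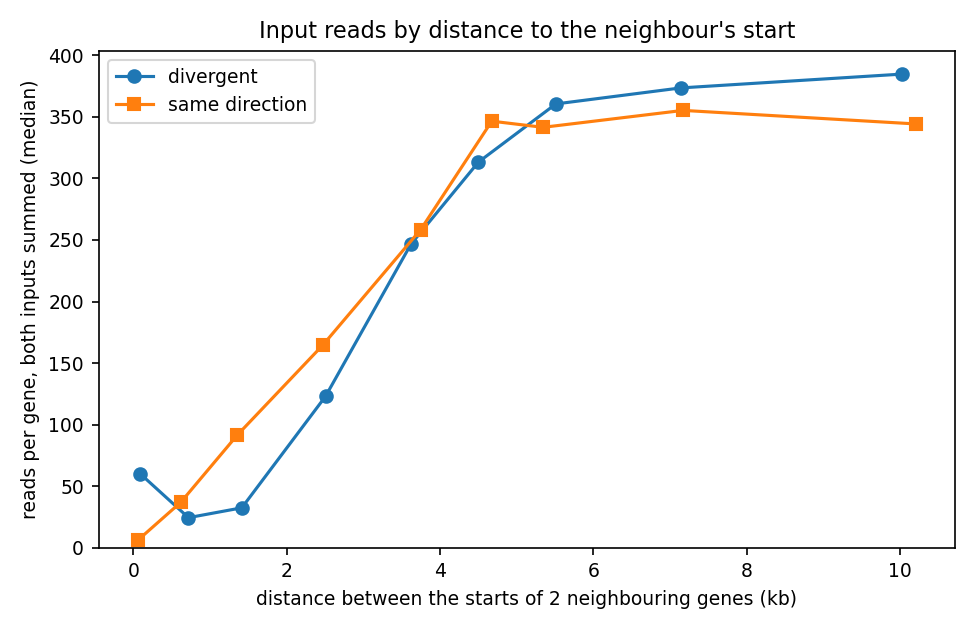
Median reads per gene over both inputs (y axis) against the median distance between the starts of 2 neighbouring genes in kb (x axis), for divergent pairs and for pairs read in the same direction. The divergent line starts at 60 reads within 500 bp, falls to 24.5 at 500 to 1000 bp and reaches 384.75 at 8000 to 12000 bp. The same-direction line goes from 6 within 500 bp to 344.25 at 8000 to 12000 bp. Convergent pairs are not drawn.

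Each ratio is the reads in basal ChIP over those in basal input after scaling for library size, given as a fold or as its log2, with an exact 99% interval of the 2 counts. A gene was called higher or lower where the ratio was at least 1.5-fold and the interval excluded 1. At 150 reads per library the interval spans a factor of 1.36 on either side of the ratio, and at 25 reads a factor of 2.19. Under this rule 981 genes (4.24%) were higher in basal ChIP and 939 (4.06%) lower, so that 51.1% of the calls were higher. This split depended on the scaling. Total counts gave 3.02% higher and 5.67% lower (34.7% of calls higher), DESeq2's size factors 4.45% and 3.82% (53.8%), and olfactory receptor genes set to no difference 12.9% and 1.02% (92.7%), which moved the median of all genes to 0.20 on the log2 scale. No read minimum gave 4.19% higher and 4.01% lower, and a minimum of 200 gave 4.21% and 4.08%. With both inputs summed as background 3.13% were higher and 3.74% lower, with an interval widened by the spread of olfactory receptor genes 3.59% and 1.08%, and at 2-fold 0.553% and 0.96%. As background, the same rule called 1.17% of genes in either direction between the 2 inputs (0.709% higher and 0.463% lower in the basal one), and in luminal ChIP over luminal input it called 1.5% higher and 2.13% lower. The ratio of the basal to the luminal ratio was called higher for 3.86% of genes and lower for 4.22%. The shares 4.24% and 4.06% are those against which the counts below are to be read.

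**Figure D2:**
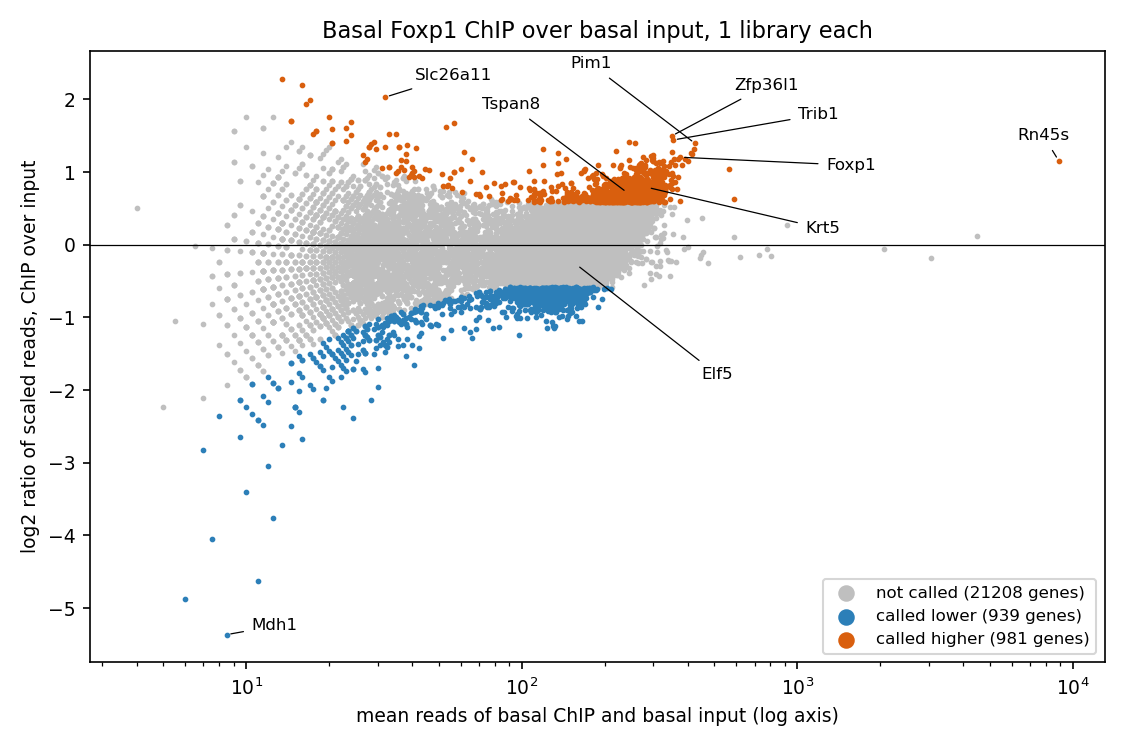
Log2 ratio of scaled reads, basal ChIP over basal input (y axis), against the mean reads of the 2 libraries (x axis, log scale) for 23128 genes, each a point. The 981 genes called higher (orange) lie mostly above 100 reads, while the genes furthest below 0 among the 939 called lower (blue) have few reads, such as Mdh1 with 0 in ChIP and 17 in input.

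Genes with CpG-rich promoters had more ChIP than input reads most often. A RefSeq promoter of 300 bases (250 before to 50 after the start) was matched to 17432 of the tested genes, and 8465 were taken as CpG-rich because their observed CpG count was at least 0.6 of that expected from their base composition. Of these, 568 (6.71%) were called higher, against 170 of 8967 (1.90%) with CpG-poor promoters. At 2-fold or more, however, 73 CpG-rich genes were called higher and 134 lower. From the lowest to the highest decile of promoters by CpG content, the share called higher went from 0.688% to 8.62%, and the share called lower went from 7.57% to 2.36%. In luminal ChIP the shares called higher at these ends were 0.344% and 2.93%. Between the inputs, genes of the lowest decile had a median log2 ratio of 0.14 (basal over luminal) and those of the highest decile −0.06, and 2.29% and 0.919% of them were called. The inputs thus also differed with CpG content, in the direction that lowers the basal ratio of CpG-poor genes; its part in the shares was not tested.

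**Figure D3:**
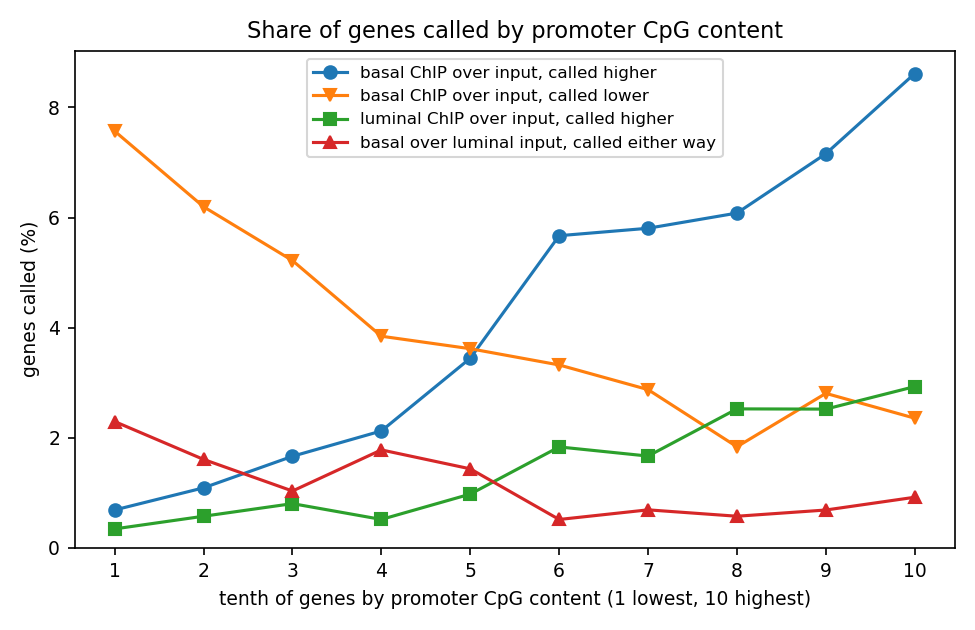
Share of genes called (y axis, percent) in deciles of genes by CpG content of their promoter (x axis, 1 lowest to 10 highest), for basal ChIP over input in both directions, luminal ChIP over input and basal over luminal input. Calls higher in basal ChIP go from 0.688% to 8.62% and calls lower from 7.57% to 2.36%.

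Among CpG-rich promoters, those with a forkhead core were called higher more often. The 7 letters TGTTTAC, searched on both strands, were in 188 of the 8465 CpG-rich promoters, and 29 of these genes (15.4%) were called higher, against 539 of 8277 (6.51%) without the core. The core was in 3.65% of all RefSeq promoters of this length. Every 7-letter word found in at least 100 CpG-rich promoters was then ranked by the share of its genes called higher, and among 6466 such words the forkhead core stood first. Ranks 2 and 3 were AAATATC, with 15 of 102 genes (14.7%), and ATAAGGC, with 15 of 110 (13.6%). The word GTTTACA, which overlaps the core by 6 letters, stood eighth with 18 of 138 (13.0%). Within the subset of these genes whose start was not shared with another gene's window, the core stood first of 4982 words. There 22 of 133 genes with the core were called higher (16.5%), against 436 of 5599 (7.79%) without it. The next words were close, CTACGTC with 18 of 112 (16.1%) and ATCAGCG with 28 of 182 (15.4%). As part of the same genes and libraries, the subset is not an independent observation. These shares describe genes of 1 pair of libraries, the promoters cover 6% of the counted 5000 bp, and a match is a string of letters and not a binding site.

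The other comparisons gave these values for the same letters, and no test was made between comparisons. In luminal ChIP, 6 of the 188 genes (3.19%) were called higher against 2.31% of those without the core, and the core ranked 905 of 6466 words. Between the inputs 1 of the 188 was called. In CpG-poor promoters 10 of 341 genes with the core (2.93%) were called higher in basal ChIP, against 160 of 8626 (1.86%) without it, and the core ranked 828 of 6342 words. Median ratios differed little: the log2 median was 0.15 in CpG-rich promoters with the core and 0.12 without it, so that the difference lay in the number of genes past the threshold.

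Words that differ from the core by 1 letter had lower shares. In CpG-rich promoters TGTTTAT had 14 of 168 genes called higher (8.33%), TGTTTGC 14 of 224 (6.25%), TATTTAC 5 of 96 (5.21%) and TGTTGAC 7 of 109 (6.42%), beside the 15.4% of the core. All RefSeq promoters hold these words in 4.60%, 5.07%, 3.04% and 2.50% of cases, in the same order. Position and strand were examined next. The share was 22.4% (11 of 49) for cores within 50 bases of the start, 11.7% (7 of 60) at 50 to 150 bases before it and 13.6% (11 of 81) at 150 to 250 before it. On the strand of the gene 14 of 82 were called higher, and on the other strand 15 of 107. None of the 4 genes with more than 1 core was called higher.

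Of the other transcription factor motifs searched on both strands, the AP-1 word came nearest to the forkhead core. AP-1 is the dimer of Fos and Jun proteins, and its word TGACTCA was in 199 CpG-rich promoters with 25 genes called higher (12.6%), against 6.57% without it; it was in 5.20% of all RefSeq promoters. Promoters with the TEAD word GGAATGT had 15 of 171 called higher (8.77%; 3.85% of all promoters hold it), and the CRE word TGACGTC had 46 of 572 (8.04%; 3.21% of all). The GC box GGGCGG, read by Sp1 and Klf proteins and held by 35.7% of all promoters, had 7.01% (441 of 6291). Below the CpG-rich share of 6.71% were the ETS word CCGGAAG with 5.68%, CCAAT with 6.26%, the YY1 word AAGATGG with 5.93%, the NRF1 word GCGCATG with 5.65%, the RUNX word TGTGGTT with 5.75% and the TATA word TATAAAA with 5.91%. The E-box CACGTG stood at 7.02% and the GATA word AGATAAG at 7.14%. These 8 words were in 8.86%, 37.4%, 6.34%, 3.91%, 5.27%, 5.48%, 7.15% and 3.04% of all RefSeq promoters, in the order named.

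**Figure D4:**
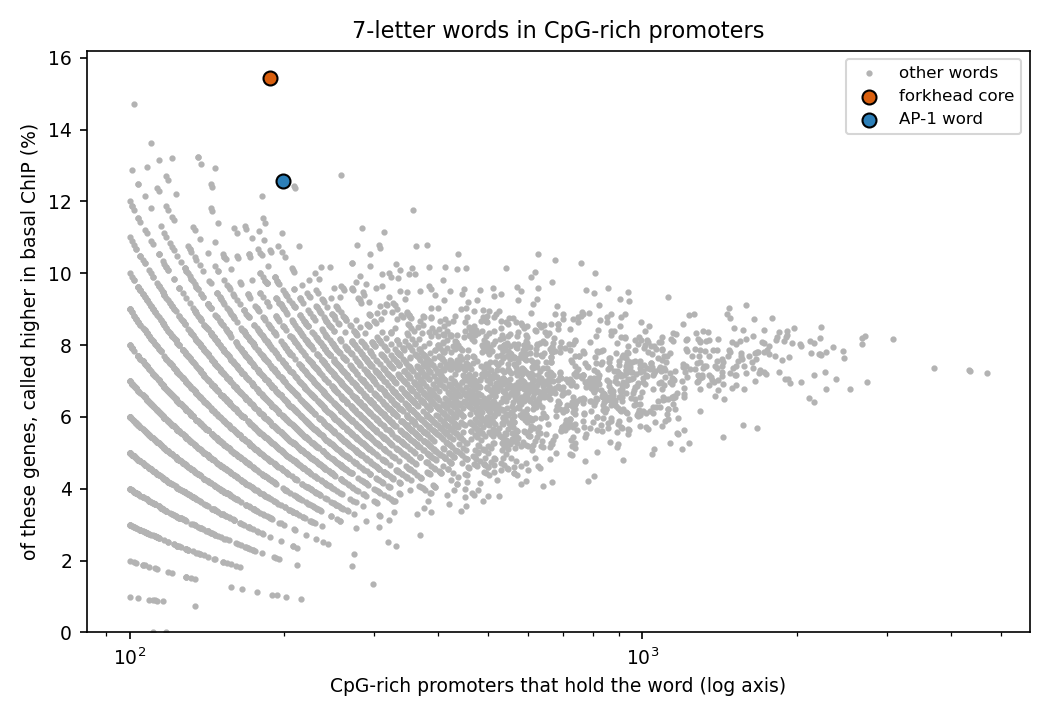
Each point is a 7-letter word: on the x axis (log scale) the number of CpG-rich promoters that hold it, on the y axis the percent of those genes called higher in basal ChIP. The forkhead core (188 promoters, 15.4%) is the highest of 6466 words, and the AP-1 word (199 promoters, 12.6%) also lies near the upper edge.

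In all, 39 genes called higher in basal ChIP had a forkhead core in the promoter, 29 of them CpG-rich and 10 CpG-poor. Their log2 ratios ran from 0.59 to 1.57. These genes were chosen on the basal ratio, so the comparison with luminal cells is a description. The basal ratio was above the luminal one in 38 of the 39; 7 were called higher in luminal ChIP too and 7 were called higher in basal than in luminal cells by the ratio of the 2 ratios, none lower. Junb, an AP-1 subunit, had 538 ChIP and 202 input reads in basal cells, and 467 and 338 in luminal cells, a basal ratio of 2.26 (1.83 to 2.81). Its core lies 132 bases before the start. Btg1, an antiproliferative factor that binds the mRNA deadenylation machinery, had 411, 155, 288 and 309 reads in the same order and a basal ratio of 2.25 (1.76 to 2.89). The promoters of these 2 genes were the only ones with a core among the 21 matched for the 30 highest genes, and they are printed here upstream of the start, with the core in capitals, beside that of Zfp36l1, which had the highest lower bound and no core.
Junb, chr8:84978749-84978998, minus strand: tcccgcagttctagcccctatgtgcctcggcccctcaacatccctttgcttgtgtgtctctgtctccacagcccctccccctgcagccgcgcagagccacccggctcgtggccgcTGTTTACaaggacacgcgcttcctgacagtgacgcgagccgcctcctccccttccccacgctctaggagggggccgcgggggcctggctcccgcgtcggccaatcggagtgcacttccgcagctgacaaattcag
Btg1, chr10:96616751-96617000, plus strand: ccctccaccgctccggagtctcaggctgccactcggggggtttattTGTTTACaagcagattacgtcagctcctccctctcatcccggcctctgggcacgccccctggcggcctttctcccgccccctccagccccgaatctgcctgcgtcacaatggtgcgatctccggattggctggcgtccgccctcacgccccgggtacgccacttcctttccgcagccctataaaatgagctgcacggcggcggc
Zfp36l1, chr12:80113014-80113263, minus strand: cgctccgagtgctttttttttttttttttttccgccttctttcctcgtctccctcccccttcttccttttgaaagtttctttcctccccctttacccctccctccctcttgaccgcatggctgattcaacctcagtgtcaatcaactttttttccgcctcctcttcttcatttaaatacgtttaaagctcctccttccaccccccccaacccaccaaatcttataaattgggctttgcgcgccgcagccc

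Bcl2l11, which encodes the pro-apoptotic protein Bim, had 515 ChIP and 205 input reads in basal cells, and 306 and 287 in luminal cells, a basal ratio of 2.13 (1.72 to 2.65). Klf9, a zinc finger factor induced by steroid hormones, had 393, 161, 368 and 281 reads and was called higher in both cell types. Txnip, an inhibitor of thioredoxin that also restrains glucose uptake, had 362, 197, 279 and 349 reads and a basal ratio of 1.56 (1.24 to 1.97). Bcl2l11 and Txnip are also known as targets of Foxo factors. Tspan8 had 319, 165, 202 and 275 reads, and its core lies 15 bases before the RefSeq start in a CpG-poor promoter. Its basal ratio of 1.64 (1.28 to 2.12) lost its call, as did that of Txnip, when both inputs were summed as the background.

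Of the 30 genes with the highest lower bound, those described here are ordered by role. Genes with predicted or clone-based names were left out of this ranking. Hexim1 and Hexim2, neighbours on chromosome 11, encode inhibitors of P-TEFb, the kinase that releases paused RNA polymerase II. Hexim1 (chromosome 11, 103116325 to 103119725) had 572 ChIP and 214 input reads in basal cells, and 316 and 308 in luminal cells, a ratio of 2.27 (1.84 to 2.81). Hexim2 (103123260 to 103139908) had 431, 157, 268 and 274 reads and a ratio of 2.33 (1.83 to 2.99). Polr2a, the gene of the largest polymerase II subunit, had 327, 114, 204 and 199 reads and a ratio of 2.43 (1.84 to 3.26). All 3 were called higher in basal than in luminal cells. Across the list of RNA polymerase II and Mediator genes, however, Polr2a and Hexim1 were the only ones of 49 called higher, 1 was called lower, and the median log2 ratio was 0.14.

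Among DNA-binding factors, Mnt, a partner of Max that opposes Myc, had 503 ChIP and 194 input reads in basal cells, and 353 and 347 in luminal cells, a ratio of 2.20 (1.77 to 2.75). Hivep2, a large zinc finger protein, had 471, 180, 300 and 306 reads and a log2 ratio of 1.15. Gabpb1, the partner of the ETS factor Gabpa, had 432, 165, 377 and 344 reads and a log2 ratio of 1.15. Their luminal ratios, 0.47, 0.42 and 0.58 on the log2 scale, were not called. The difference between the cell types was called for Mnt and Hivep2 but not for Gabpb1. At Gabpb1 the basal input was itself called lower than the luminal input, with a log2 ratio of −0.61.

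Metabolic and membrane genes were also among the highest. Pdk4, a kinase that turns off pyruvate dehydrogenase, had 433 ChIP and 163 input reads in basal cells, and 239 and 280 in luminal cells. Its basal ratio of 2.25 (1.78 to 2.88) exceeded the luminal one by 0.96 on the log2 scale (99% interval 0.48 to 1.43). Slc38a2, a neutral amino acid transporter, had a log2 ratio of 1.19, and Alkbh5, an RNA demethylase, of 1.17. Prss22, an epithelial serine protease, had 404, 148, 198 and 238 reads, and its difference from luminal cells was 1.03 (0.53 to 1.54). Slc26a11 had a higher log2 ratio, 2.03, but on 53 reads over 11, with an interval of the fold from 1.77 to 11.1.

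Noncoding RNA genes among the 30 highest were Mir21a, Mir7687, Mir466d, Lncpint, Neat1 and Rn45s. Mir21a (chromosome 11, 86584067 to 86584158) gives a widely expressed microRNA; its mature strand from RefSeq, with the seed (bases 2 to 8) in capitals, is shown to identify the locus.
mmu-miR-21a-5p: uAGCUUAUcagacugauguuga
The counts are of DNA around its start, not of the RNA. Mir21a had 582 ChIP and 222 input reads in basal cells, and 569 and 347 in luminal cells, so that the ratio was 2.23 (1.82 to 2.74) in basal cells and the difference from luminal cells was 0.00 (−0.39 to 0.38). Lncpint, a p53-induced long noncoding RNA, had 90 and 24 reads in basal cells and a ratio of 3.18 (1.77 to 6.13). Its own start was shared with another gene's window, which left 877 bases of its own. Under the deduced window, reads at that start were not counted. MicroRNA genes as a class were not high: 20 of 892 were called higher and 61 lower, with a median of −0.13.

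Of the 30 highest, 12 were also called higher in luminal ChIP, and 20 were called higher in basal than in luminal cells. Over all tested genes 3.86% were called higher in basal than in luminal cells. The 30 were chosen on the basal ratio, which is part of that difference, so the comparison with luminal cells is a description. In 24 of the 30 the basal input was below the luminal input after scaling, which raises the basal ratio and lowers the luminal one. In the 21 with a matched promoter, 17 promoters were CpG-rich, 14 held a GC box and none held the AP-1 word. With both inputs summed as background, all 30 were still called higher.

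Signal-induced transcription factors and kinases formed the groups with the highest medians. The lists were chosen with earlier results of these data known, and are described by counts and medians only, beside the 4.24% called higher and the median log2 ratio of −0.01 over all tested genes. In the lists with the highest medians the basal input was below the luminal input, which raises the basal ratio and lowers the luminal one: the median log2 ratio of the inputs was −0.17 for Pim kinases and Tribbles, −0.23 for AP-1, −0.08 for Egr, Nr4a and Ier genes and −0.15 for Klf factors. Of 6 Pim kinases and Tribbles pseudokinases, which act on growth signals and protein turnover, 4 were called higher, with a median of 0.94. Pim3 had 353 ChIP and 143 input reads in basal cells, and 295 and 260 in luminal cells, and Trib2 had 302, 146, 232 and 256. Their basal log2 ratios were 1.07 and 0.81, beside Trib1 at 1.44 and Pim1 at 1.39.

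Of 11 AP-1 genes 7 were called higher and 0 lower (median 0.67), and 6 were called higher in luminal ChIP, where the median was 0.59. Besides Junb these were Fosl2 (413 reads in basal ChIP over 184 in input), Fos (351 over 162), Atf3 (411 over 197), Jun (394 over 191), Fosl1 (321 over 171) and Jund (322 over 173). Fosl1 had a log2 ratio of 0.67 in basal and 0.17 in luminal cells, and Fosb, at 0.56 in basal and 0.59 in luminal cells, was called in luminal cells only; neither difference passed. Of 11 Egr, Nr4a and Ier genes 5 were called higher in basal ChIP, led by Ier2 at 1.09, and 1 in luminal ChIP, with medians of 0.54 and 0.19. No member of either list was called different between the cell types.

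Of 17 Klf factors, zinc finger proteins that read GC-rich promoters, 8 were called higher and 1 lower, with a median of 0.53. Klf13 had 452 ChIP and 195 input reads in basal cells, and 286 and 293 in luminal cells, a log2 ratio of 0.98. Klf6 (271 over 108 in basal cells) was higher in both cell types, at 1.09 and 1.24. Klf12 was the member called lower, with 102 reads over 139. With the inputs summed, the interval widened or the receptors as centre, Klf12 was not called. Of 13 genes of the Myc network 3 were called higher, Mnt, Myc and Mga, with a median of 0.36; Mga, a Max partner, stood at 0.95 in basal and 1.15 in luminal cells.

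Genes of MAP kinase feedback, the Dusp phosphatases, Sprouty and Spred, had 7 of 17 called higher and a median of 0.37. Spry2 had 416 reads over 195, Dusp4 378 over 181 and Dusp6 431 over 227. Of 24 genes for mRNA decay 6 were called higher and 1 lower, with a median of 0.34. The Zfp36 proteins bind AU-rich elements and speed decay: Zfp36 stood at 1.12 and Zfp36l2 at 0.86, beside the higher Zfp36l1, while Zfp36l3 was the member called lower. The paired Btg1 and Btg2 stood at 1.17 and 0.72.

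Foxo factors and their targets had 8 of 22 called higher and 0 lower (median 0.49), against 1 of 22 and 0.18 in luminal ChIP. Foxo3 itself had 458 ChIP and 199 input reads in basal cells, and 351 and 283 in luminal cells, ratios of 0.97 and 0.76 on the log2 scale. Cdkn1b, the inhibitor p27 of cyclin-dependent kinases, had 358, 163, 220 and 295 reads and was called higher in basal than in luminal cells, as were Pdk4 and Rictor. Cited2, a CBP-binding coregulator, stood at 0.90, Ccng2, an atypical cyclin, at 0.68, and Rictor, a subunit of mTOR complex 2, at 0.70. Among the forkhead genes themselves, Foxp1 (chromosome 6, 98925342 to 99522746) had 551 ChIP and 203 input reads in basal cells, and 315 and 249 in luminal cells, and was called higher in both cell types. Foxp4 had 196 reads over 119 and Foxp2 122 over 117, and neither was called. Of 34 other forkhead genes 2 were called higher and 3 lower, with a median of 0.04 that was −0.02 with total counts; the higher were Foxk1 (285 over 132) and Foxj1 (281 over 156).

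Of 14 genes for known corepressor partners of Foxp1, 1 was called higher and 1 lower. Ctbp2 had 322 ChIP and 131 input reads in basal cells, and 201 and 172 in luminal cells, a ratio of 2.09 (1.60 to 2.75), with a core 48 bases before its start. Chd4, the helicase of the NuRD complex, was called lower on 7 reads over 22, a call lost with the widened interval. The wider list of chromatin modifiers had 16 of 72 called higher and 1, Chd4, lower, with a median of 0.40, and 3 of 72 called higher in luminal ChIP. They included the histone methyltransferase genes Kmt2a (335 over 145) and Kmt2d (310 over 166), the demethylase genes Kdm3a (493 over 218), Kdm5b, Kdm5c and Kdm7a, and the coactivator gene Crebbp (306 over 150). Summing the inputs left 10 of 72 higher calls.

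Clock genes had 8 of 24 called higher and a median of 0.38. Bhlhe41, a repressor of the clock loop, had 429 ChIP and 178 input reads in basal cells, and 277 and 282 in luminal cells, a ratio of 2.05 (1.62 to 2.59). Per1 had 457 over 222 reads in basal cells and Clock 337 over 174. Bhlhe41 and Clock were called higher in basal than in luminal cells. Hippo pathway genes had 7 of 26 called higher and a median of 0.33: Amotl2 (392 over 169), the YAP targets Cyr61 (353 over 179) and Ctgf (351 over 188), Tead1, Wwc1, Ajuba and Yap1. Of these, 2 calls were left with the inputs summed. In luminal ChIP 3 were called, Cyr61 and Yap1 (0.84) among them.

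Genes of the basal layer's own identity had 7 of 21 called higher, none lower and a median of 0.50, against none of 21 and 0.00 in luminal ChIP, and 6 were called higher in basal than in luminal cells. Krt14 had 390 ChIP and 182 input reads in basal cells, and 128 and 165 in luminal cells. For Krt5 the reads were 383, 188, 99 and 185, and for Krt16, another keratin gene of the list, 238, 131, 111 and 165. Jag2, Sox9, Vim and Tspan8 were the others called, with log2 ratios of 0.71, 0.67, 0.60 and 0.71. Trp63, the regulator of the basal lineage, was at 0.00 with 212 reads over 180. The basal input was itself above the luminal input at Krt14 and Krt5, by 0.59 and 0.47 on the log2 scale, and by a median of 0.11 over the list; a higher basal input lowers the basal ratio. Of the 12 matched promoters 6 were CpG-rich, with 1 gene called higher, and 6 CpG-poor, with 4 called higher.

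The contractile genes of these myoepithelial cells had 5 of 22 called higher and 1 lower, with a median of 0.20, none higher in luminal ChIP and 6 called higher in basal than in luminal cells. Tpm2 had 408 ChIP and 199 input reads in basal cells, and 203 and 256 in luminal cells. Cald1, which encodes the actin-binding caldesmon and holds a core 42 bases before its start, had 489, 243, 237 and 294. Tpm1 had 303 over 157 in basal cells, and Mkl1, a coactivator of SRF, 118 over 56. Srf itself was called lower, with 43 reads over 89. Acta2, the smooth muscle actin gene, had 405 over 248 and was not called. Of 28 genes for hemidesmosomes, laminins and integrins, which anchor basal cells to the basement membrane, 4 were called higher: Cd151 (470 reads over 198), Lamc1, Lamb3 (289 over 151) and Itgb4 (350 over 192). Cd151 differed from luminal cells by 0.92 and Itgb4 by 0.75, and both were called.

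Signalling genes gave more mixed counts. Among TGF-beta, Smad and Id genes 5 of 34 were called higher, led by Skil (410 over 175), a Smad corepressor, with a median of 0.38. Wnt pathway genes had 7 of 49 called higher and 1 lower, including Axin2 (252 over 127), a feedback target of beta-catenin. Notch genes had 5 of 25, Hes1 (464 over 200), Numbl, Maml3, Jag2 and Jag1, with a median of 0.06. Of 25 JAK, STAT and SOCS genes, 4 were higher and 1 lower, and Socs1 stood at 0.84 in both cell types (284 over 135 in basal, 223 over 170 in luminal cells). For 21 NF-kB genes the count was 3, which became 1 with the inputs summed.

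Lists whose promoters were mostly CpG-rich differed in their counts. Splicing and hnRNP genes, with 35 of 38 matched promoters CpG-rich, had 9 of 44 called higher and a median of 0.31, but 2 with the inputs summed. Translation factors, all 26 matched promoters CpG-rich, had 10 of 36 and 0.23, and 4 with the inputs summed. Replication and mitosis genes (24 of 26 CpG-rich) had none of 29 called higher and 1 lower, mitochondrial ribosomal proteins (56 of 59) had none of 67 higher and 5 lower, and subunits of the respiratory complexes and ATP synthase (61 of 73) had 3 of 87 higher and 4 lower. Their medians were 0.03, 0.08 and 0.00, and with total counts the first and the last were below 0.

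**Figure D5:**
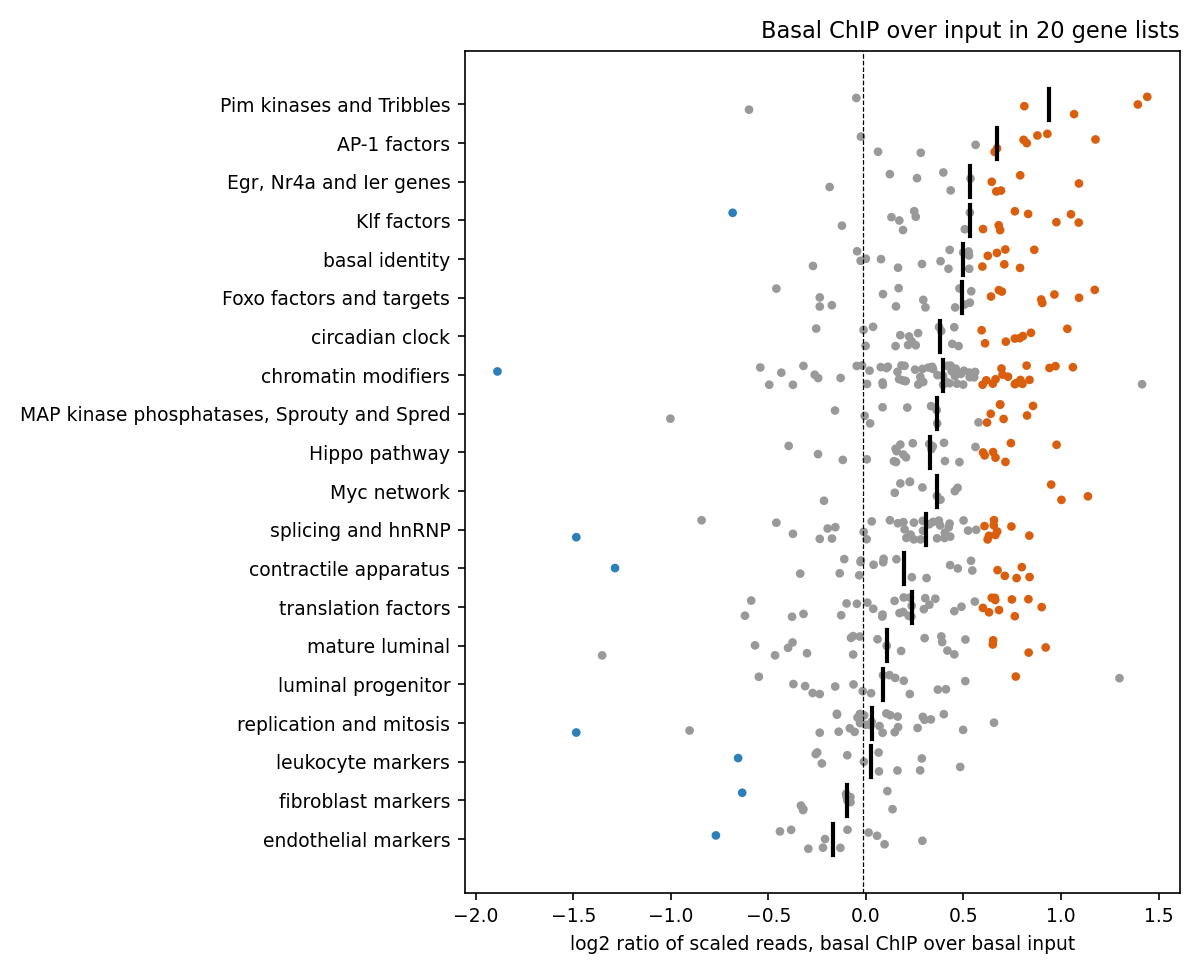
Log2 ratio of scaled reads, basal ChIP over basal input (x axis), for the members of 20 gene lists (y axis), each gene a point; orange points were called higher, blue lower, grey neither, black bars are list medians and the dashed line is the median of all tested genes. Pim and Tribbles, AP-1, Egr and Klf lists have medians from 0.53 to 0.94. Lists of luminal, cell division, leukocyte, fibroblast and endothelial genes have medians from −0.17 to 0.11.

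Markers of other cells of the gland had list medians from −0.17 to 0.11, beside −0.01 for all tested genes. Mature luminal genes had 4 of 23 (17.4%) called higher, against 4.24% of all tested genes. These were Epcam (241 over 108), Tbx3 (376 over 179), Xbp1 and Wnt5a. The median of the mature luminal list was 0.11 and turned to −0.03 with the inputs summed, where 1 member was called higher. Luminal progenitor genes had 1 of 19, Mfge8, and Elf5 had 156 reads over 160. None of 11 fibroblast, 12 endothelial, 12 leukocyte, 10 adipocyte or 7 pericyte markers was called higher; Dcn, Tek and Itgam were called lower. Their medians were −0.10, −0.17, 0.03, −0.10 and 0.11, and each marker was counted, since DNA of silent genes is also recovered, with 92 to 287 ChIP reads. The absence of calls therefore says nothing of how many such cells were present.

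Gene families known for their use in other tissues had medians below that of all genes. Olfactory receptor genes, used in sensory neurons of the nose, had 1 of 1108 called higher and 90 lower, with a median of −0.21, and 282 vomeronasal receptors had the same median with 1 higher and 21 lower. Defensins had 11 of 55 called lower. In these families nearly all matched promoters were CpG-poor: 926 of 929 olfactory receptors. The basal input was above the luminal input in them, by a median of 0.21 for olfactory receptors, which lowers their basal ratio. On the X chromosome 12 of 963 genes (1.25%) were called higher and 58 (6.02%) lower, with a median of −0.10 and a median of 0.09 between the inputs.

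The strongest depletions were of genes with few counted bases. Among 222 genes called lower at 2-fold or more, the median was 36 reads in input and 16 in ChIP, and 81.1% had 50 or fewer input reads, against 14.1% of all tested genes. Of the 167 with a resolved window, 140 (83.8%) shared their own start with another gene's window, against 15.3% of the 16368 tested genes with a resolved window. Of the 182 with a matched promoter, 134 were CpG-rich, against 8465 of the 17432 tested genes with one. For genes called higher at 2-fold or more it was 73 of 96. Among the 128 genes called higher at 2-fold or more, 39.8% had 50 or fewer input reads, and 29 of the 87 with a resolved window (33.3%) had a shared start. Under the deduced window, reads at the start of such genes were not counted, and those left came from DNA away from it. The 12 genes with the lowest upper bound had at most 14 ChIP reads and 46 input reads, and 8 of the 8 with a resolved window had a shared start. Cwc15, a spliceosome factor, had 14 reads in basal ChIP and 46 in basal input, with 918 bases of its own. Wdr46 had 1 ChIP read and 14 input reads in basal cells, and 16 and 13 in luminal cells. The call on Wdr46 was lost with the widened interval, and that on Cwc15 was kept.

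For pairs of genes 6000 to 12000 bp apart, Pearson's r of the basal log2 ratio was 0.07 over 1097 pairs, a description across genes that share both libraries, and between the inputs it was 0.26. In 3 of these pairs both genes were called higher in basal ChIP. Counted once per pair, 3.46% of the genes were called higher, and 7.9% of those had a neighbour called higher.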

How the data were processed

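TruSeq libraries of Foxp1 ChIP and input DNA were read single-end (75 to 85 bp) by a NextSeq, per the labels' protocols. The authors deposited whole-number read counts per gene, not normalized, made with featureCounts on mm10, per the submitters' processing notes; the counted interval is not stated and was deduced from the inputs. How duplicates were handled is not given in the sources used. Counts were scaled with the TMM factors of edgeR 4.0.16 (R 4.3.3) after a minimum of 40 reads over 4 libraries. Ratios carry exact Clopper-Pearson 99% intervals of the 2 counts. A library at 0 was given 0.5 reads for its log2 value, and differences between cell types used all 4 counts plus 0.5. The calculations (Python 3.11.15, numpy 2.4.6, scipy 1.17.1, pandas 2.3.3) were tested on simulated data. With 1 library a group there were no replicates, p-values or leave-one-out fits, and intervals cover counting error only.

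RefSeq promoters and miRNAs (GRCm38.p6) were matched by symbol or gene ID. Where a gene has several starts, the one nearest its 5′ end was used. The members and the 62 gene lists were chosen with earlier results of these data known. Named genes were the 30 with the highest lower bound of the basal ratio, the 12 with the lowest upper bound, the 10 with the strongest difference from luminal cells in each direction, the 5 with most ChIP reads, a fixed set (Foxp1, Foxp2, Foxp4, Tspan8 and markers) and the 3 highest and 2 lowest members of each list; others were chosen after their values were seen. One gene that this rule names is not reported here. Alternatives were other scalings, read minimums, both inputs summed, an interval widened by the spread of olfactory receptor genes, a 2-fold threshold, and, added after seeing the data, other CpG thresholds and any annotated start.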

Additional observations from a re-analysis of the deposited data

Results flagged for a closer look

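For 19 genes the ratio of ChIP to input differed between basal and luminal cells by the interval of the difference, which covers counting error only. They were among the 10 strongest differences in each direction, and are given as basal minus luminal log2 ratio with reads in basal ChIP, basal input, luminal ChIP and luminal input. In 5 of these 19 genes every library had more than 50 reads and the call in basal ChIP over input held with the widened interval. Krt5 had a difference of 1.25 (383, 188, 99 and 185 reads). Mt2, a metallothionein, had 1.21 (470, 188, 195 and 290 reads). Ppp6r2, a phosphatase subunit, had 1.28 (371, 118, 183 and 226 reads). Nipal4 had 1.61 (238, 100, 54 and 111 reads). Mir133b had −1.69 (71, 121, 126 and 107 reads). At Mir133b the basal input was itself called higher than the luminal input, by 0.62 on the log2 scale, which lowers the basal ratio.

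The others had a library under 30 reads, or lost their call in basal ChIP over input with the widened interval, or both. Higher in basal cells were Mir574 with 3.66 (27, 6, 4 and 18 reads), Slc26a11 with 2.78 (53, 11, 14 and 32 reads), Enkd1 with 2.72 (43, 14, 7 and 24 reads), Padi3 with 2.62 (58, 19, 9 and 29 reads), Uqcrb with 2.15 (54, 18, 16 and 38 reads) and Phkb with 2.09 (72, 31, 16 and 47 reads). Lower in basal cells were Wdr46 with −4.79 (1, 14, 16 and 13 reads), Cyp4x1 with −2.97 (6, 19, 20 and 13 reads) and Cnpy4 with −2.86 (6, 24, 35 and 31 reads). Mrpl40 had −2.74 (6, 25, 30 and 30 reads), Dner −2.50 (13, 36, 42 and 33 reads), Vti1a −2.24 (16, 38, 41 and 33 reads), Mir99a −2.13 (23, 48, 60 and 46 reads) and Uqcrq −2.13 (34, 53, 91 and 52 reads). Uqcrq, Mir99a and Mir133b were called lower in basal and higher in luminal ChIP, and Phkb the reverse.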

How the results depend on the processing

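No paired analysis was possible because each group held 1 library, and for the same reason no library could be left out. In this section, named genes are those named by rule and those called higher with a forkhead core in the promoter. Other genes mentioned above, such as Jun and Sox9, were not checked one by one. No value of a named gene changed direction among called genes. Of 191 named genes called in basal ChIP, calls were lost by 15 with total counts, 1 with DESeq2's size factors, 14 with olfactory receptors as centre, 0 without a read minimum, 2 with a minimum of 200, 42 with the inputs summed, 38 with the widened interval and 116 at 2-fold; 51 kept their call throughout. Higher and lower basal calls numbered 698 and 1311 with total counts, 2993 and 237 with receptors as centre, 725 and 865 with the inputs summed, 830 and 249 with the widened interval, and 128 and 222 at 2-fold. Calls between cell types (higher and lower in basal) numbered 2076 and 420 with receptors as centre, 212 and 131 with the widened interval, and 146 and 252 at 2-fold; between the inputs they numbered 912 and 37 with receptors as centre and at 2-fold. For CpG-rich genes with the forkhead core, the percent called higher was 31.383 with receptors as centre and 2.66 at 2-fold. Without the core it was 4.591 with total counts, 19.621 with receptors as centre, 7.106 with a minimum of 200, 4.422 with the inputs summed, 5.666 with the widened interval and 0.822 at 2-fold. For all CpG-rich genes these were 4.761, 19.882, 7.347, 4.572, 5.836 and 0.862, in that order. For CpG-poor genes the percent was 1.361 with total counts, 6.524 with receptors as centre, 1.595 with the inputs summed, 1.461 with the widened interval, 0.256 at 2-fold, and 1.499 and 2.461 at CpG thresholds of 0.5 and 0.7. The core ranked 1 among words with total counts, DESeq2's size factors, no minimum, a minimum of 200 and the inputs summed, 2 with receptors as centre and with the widened interval, and 69 at 2-fold, where 5 of its 188 genes were called. The cause of these shifts was not tested beyond what each setting does by construction.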
